A study of Mus musculus with 4 samples.

Results

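The hippocampal neurons of a mouse line that lacks monoacylglycerol lipase (MAGL, encoded by Mgll) in astrocytes were compared with those of wild type mice, by summing the RNA of excitatory and of inhibitory nuclei in 1 single-nucleus library of each genotype. Nuclei were taken by fixed counts of unique molecular identifiers (UMIs, each counting 1 captured RNA molecule). A nucleus with at least 500 detected genes was excitatory with at least 2 UMIs of Slc17a7, the vesicular glutamate transporter, and none of the GABA-synthesis genes Gad1 and Gad2. It was inhibitory with at least 3 UMIs of Gad1 plus Gad2 and at most 1 of Slc17a7. The pools held 4077 excitatory and 984 inhibitory nuclei of the wild type library (WT), and 4581 and 1213 of the astrocyte knockout library (aKO), together 10855 of the 20100 barcodes of the 2 libraries and of 60288 in the series.

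The series profiled hippocampus by single-nucleus RNA sequencing in 4 genotypes of mouse with 1 library each: wild type, total or global MAGL knockout (tKO), astrocyte-specific knockout (aKO) and neuron-specific knockout (nKO). The sources used here do not give the strain, the age, the Cre driver of each conditional knockout, the deleted exons or the number of animals pooled in a library. Since no genotype was replicated, no difference between genotypes could be tested, and each difference below is one between libraries. Intervals in parentheses after a ratio or a share are exact 95% intervals and cover counting error only.

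MAGL is the main enzyme that breaks down 2-arachidonoylglycerol (2-AG) in the brain. Neurons make this lipid on demand after calcium entry or activation of receptors coupled to Gq, and it travels backwards across the synapse to the cannabinoid receptor CB1 on the axon terminal, where it lowers transmitter release. Astrocytes take up and hydrolyse part of this 2-AG and pass arachidonic acid on to prostaglandin synthesis, and an astrocyte knockout is meant to leave the enzyme of neurons in place.

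The WT and aKO libraries were of similar depth, at 89884297 and 89875862 UMIs, but their nuclei were not. The median excitatory nucleus held 11002 UMIs and 3679 genes in WT and 9031 UMIs and 3234 genes in aKO, and the median inhibitory nucleus 10055.5 and 7893 UMIs. Both libraries mixed sexes: 48.8% of excitatory nuclei in WT and 41.8% in aKO held Xist UMIs and none of 4 Y-linked genes (female), and 41.1% and 42.3% the reverse (male). The nKO library was mixed likewise, at 40.9% female, and the tKO library had 1 female nucleus among 8138 excitatory nuclei. The WT and aKO files shared 126 barcodes, 23 of them in both excitatory pools and 1 in both inhibitory pools. Levels are in CPM, the UMIs of a gene scaled so that those of the pool over the 20588 genes both files list sum to 1000000, and levels of different genes are not corrected for length.

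The pools took similar shares of the nuclei with at least 500 genes. Excitatory nuclei were 43.8% (42.8 to 44.8) of 9304 in WT and 43.0% (42.0 to 43.9) of 10664 in aKO, and inhibitory nuclei 10.6% and 11.4%. At the edge of the gates, 1281 excitatory nuclei of WT and 1637 of aKO held just 2 Slc17a7 UMIs, and 1275 and 1912 nuclei without Gad1 or Gad2 fell outside with 1. For the inhibitory gate, 126 and 251 nuclei held just 3 UMIs of Gad1 plus Gad2, and 176 and 240 fell outside with 2.

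Mgll itself was read in every library. In excitatory nuclei it stood at 102 CPM in WT, 105 in aKO, 77.1 in tKO and 104 in nKO, a log2 ratio of aKO over WT of 0.04 (-0.02 to 0.10). In inhibitory nuclei the levels were 122, 133, 112 and 119 CPM in the same order, a log2 ratio of 0.12 (0.01 to 0.23). Neurons of the library labelled aKO therefore held Mgll RNA at or slightly above the wild type level. The ratio was 0.31 (0.12 to 0.49) in a gate for the granule cell factor Prox1. It was -0.10 (-0.23 to 0.03) in a gate for CA1 pyramidal markers, both described further on. The cells that the knockout targets were scarce: a gate of at least 3 UMIs of the astrocyte genes Aqp4, Gja1, Slc7a10 and Fgfr3, with at most 1 of Slc17a7 and none of Gad1 or Gad2, held 79 nuclei in WT (0.849% of nuclei), 19 in aKO (0.178%), 59 in tKO and 47 in nKO. Their Mgll came to 373 CPM (306 to 450) in WT and 324 (192 to 512) in aKO, from 108 and 18 UMIs, a log2 ratio of -0.14 (-1.01 to 0.52). A loss of Mgll from astrocytes was not detectable at this depth, and since Mgll UMIs also came from tKO and from nKO neurons, and the deleted part of the gene is not known, RNA from the rest of the gene checks nothing about the labels. Mgll lies at chr6:88724412-88828360 on the plus strand (GRCm38).

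A gene was compared in a pool when it had at least 100 UMIs in WT plus aKO, and counted as higher or lower past 1.5-fold, a log2 ratio beyond 0.58 in either direction. In excitatory nuclei 14689 genes were compared, of which 179 (1.22%) were higher in aKO and 719 (4.89%) lower. In inhibitory nuclei 11333 were compared, of which 184 (1.62%) were higher and 407 (3.59%) lower. The median log2 ratio over all genes was -0.05 in both pools. Centred on that median, the excitatory pool had 250 higher and 586 lower genes and the inhibitory pool 232 and 301, so that the lower share of all called genes went from 80.1% to 70.1% and from 68.9% to 56.5%. Called in female nuclei and again in male nuclei of the same libraries were 98 higher (0.667%) and 384 lower (2.61%) genes in the excitatory pool, and 55 (0.485%) and 152 (1.34%) in the inhibitory pool. The sexes of a library come from different animals but share 1 preparation, so they are a description and not replicates.

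**Figure D1:**
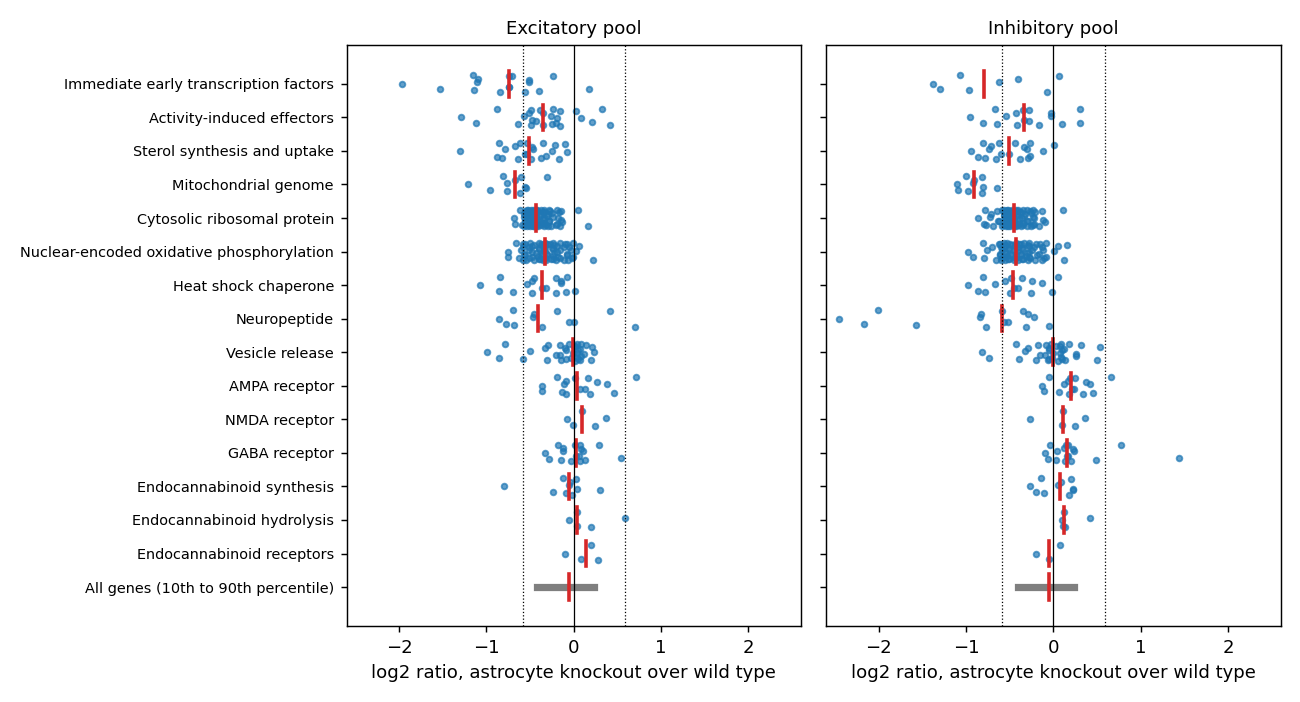
Log2 ratio of aKO over WT (x axis) for the genes of 15 lists (y axis) in excitatory and in inhibitory nuclei; each dot is 1 gene, the red bar is the list's median, the dotted lines mark 1.5-fold and the grey bar spans the 10th to the 90th percentile of all genes compared, from -0.42 to 0.23 in excitatory and from -0.40 to 0.24 in inhibitory nuclei. Immediate early genes sit to the left in both pools, at medians of -0.74 and -0.79. The lists of endocannabinoid synthesis, hydrolysis and reception, which hold the 2-AG genes among others, sit around 0.

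By list median, the pathway list farthest from 0 in excitatory nuclei was that of the immediate early genes. Neurons switch on these transcription factors within minutes of firing. Of 19 listed, 17 were compared, and 11 were lower in aKO past 1.5-fold, against 4.89% of all genes, with none higher. Their median log2 ratio was -0.74, beside -0.05 for all genes, and 16 of 17 were below 0. Their summed level was 367 CPM in WT, 223 in aKO, 366 in tKO and 453 in nKO. The aKO library was the lowest of the 4 libraries for 14 of the 17 (82.4%), and for 32.2% of all genes compared. Many of these promoters hold the core of a cAMP response element, the binding sequence of the activity-regulated factor CREB, and those of Fos and Egr4 are shown as examples with that of Vip, the neuropeptide described further on. Each runs 5′ to 3′ on the gene's strand from 250 bases before to 50 bases after the start (RefSeq, GRCm38.p6), and capitals mark the core TGACG or its reverse complement CGTCA: Fos at chr12:85473640-85473939 (plus strand), Egr4 at chr6:85513540-85513839 (minus strand) and Vip at chr10:5638968-5639267 (plus strand).
Fos: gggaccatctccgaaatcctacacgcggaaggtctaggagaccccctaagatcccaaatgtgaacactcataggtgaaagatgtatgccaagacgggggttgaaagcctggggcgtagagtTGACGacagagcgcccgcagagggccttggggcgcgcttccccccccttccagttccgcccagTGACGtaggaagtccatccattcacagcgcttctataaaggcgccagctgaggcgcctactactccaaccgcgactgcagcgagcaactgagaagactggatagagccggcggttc
Egr4: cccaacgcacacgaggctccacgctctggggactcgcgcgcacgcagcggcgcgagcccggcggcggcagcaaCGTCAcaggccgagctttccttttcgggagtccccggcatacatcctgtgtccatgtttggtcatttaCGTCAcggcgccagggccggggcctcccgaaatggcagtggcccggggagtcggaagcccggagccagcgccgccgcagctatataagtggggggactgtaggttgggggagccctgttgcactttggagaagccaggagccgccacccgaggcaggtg
Vip: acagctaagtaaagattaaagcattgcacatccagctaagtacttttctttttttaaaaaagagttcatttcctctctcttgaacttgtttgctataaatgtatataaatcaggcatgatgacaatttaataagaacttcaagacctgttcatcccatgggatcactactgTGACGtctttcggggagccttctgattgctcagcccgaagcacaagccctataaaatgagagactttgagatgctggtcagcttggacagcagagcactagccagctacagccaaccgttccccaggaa
The core, searched on both strands, occurred in 20.8% of all 32851 promoters of 300 bases, in 10 of the 16 immediate early genes with a promoter in the table (62.5%) and in 9 of 16 neuropeptide genes (56.2%). A match is a description of these letters and not a site shown to be bound.

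Fos, the founding member of the AP-1 family (chr12:85473890-85477273, plus strand), stood at 8.63 CPM in WT, 2.19 in aKO, 5.88 in tKO and 10.5 in nKO. The log2 ratio of aKO over WT was -1.97 (-2.31 to -1.66), from 423 and 100 UMIs, so that WT was 3.92-fold above aKO, the lowest of the 4 libraries. In female nuclei Fos was at 9.61 CPM in WT and 1.47 in aKO, and in male nuclei at 7.88 and 2.75. The lower level in aKO was thus present in the nuclei of both sexes. Its relative Fosb was at 2.12 CPM in WT, 0.940 in aKO, 1.62 in tKO and 3.85 in nKO, a log2 ratio of -1.15 (-1.72 to -0.65). Junb, which dimerizes with Fos, was at 32.1, 17.9, 26 and 32.7 CPM in the same order, a log2 ratio of -0.84. Jun and Jund each had a ratio of -0.51 and Fosl2 of -0.40, inside the 1.5-fold line.

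The zinc-finger factors of the Egr family were lower likewise. Egr1 stood at 27.8 CPM in WT, 13.0 in aKO, 25.7 in tKO and 31.7 in nKO, a log2 ratio of -1.10 (-1.24 to -0.96). Egr4 had 7.96, 3.72, 6.98 and 13.8 CPM in that order, a ratio of -1.09 (-1.37 to -0.83). For Egr3 the levels were 18.5, 11.3, 17.2 and 26 CPM, a ratio of -0.70. All 3 were lowest in aKO and highest in nKO. Egr2 fell under the count minimum, with 56 UMIs in WT and 20 in aKO.

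Btg2, an antiproliferative gene induced by depolarization, was at 22.9 CPM in WT, 7.89 in aKO, 19.5 in tKO and 24.9 in nKO, a log2 ratio of -1.53 (-1.71 to -1.36). Among the orphan nuclear receptors, Nr4a1 was at 67.4, 40.3, 59.5 and 76.5 CPM, a ratio of -0.74, and Nr4a2 at 58.1, 34.7, 75.3 and 83.1 CPM, a ratio of -0.75. Nr4a3 was at 50.4 CPM in WT, 42.8 in aKO, 65.5 in tKO and 80.3 in nKO, a ratio of -0.23 that did not pass 1.5-fold. Npas4, a factor induced by calcium entry alone, stood at 12.6, 8.59, 16.8 and 21.6 CPM, a ratio of -0.55, just inside the line. Ier2 (-1.14) and Ier5 (-0.74) were also lower, with Ier5 at 12.3 CPM in WT but at 7.35 in aKO, 6.67 in tKO and 7.33 in nKO, so that WT was the library apart for this gene. Klf4 was the exception in direction, at 1.16 CPM in WT and 1.31 in aKO, a ratio of 0.17. By sex, the median of the 17 was -0.90 in female and -0.66 in male nuclei, and 10 of the 17 were past 1.5-fold lower in both, against 2.61% of all genes.

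**Figure D2:**
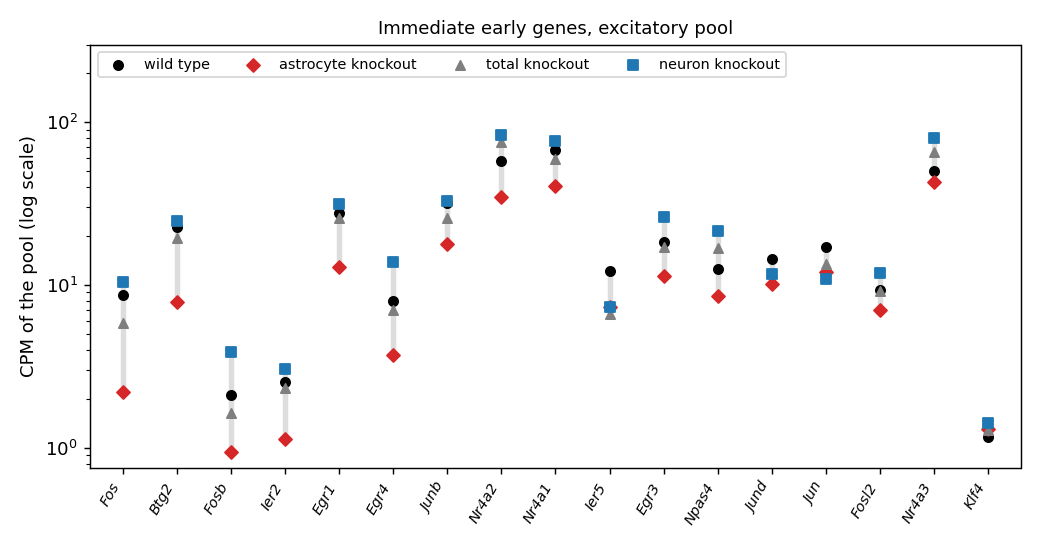
Level in CPM (log axis) of the 17 immediate early genes compared in excitatory nuclei, with 1 mark for each of the 4 libraries. The aKO mark is the lowest for 14 of the 17 genes, with Fos at 2.19 CPM against 5.88 to 10.5 in the other libraries.

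Effector genes induced by neuronal activity were read next. Of 25 compared, 4 were lower in aKO, against 4.89% of all genes, and none higher, with a median log2 ratio of -0.35, and their summed level was 1764 CPM in WT, 1446 in aKO, 1499 in tKO and 1724 in nKO. Dusp1, a phosphatase that switches off MAP kinases, was at 6.67, 2.71, 6.80 and 8.57 CPM in WT, aKO, tKO and nKO, a log2 ratio of -1.29 (-1.61 to -1). Pcsk1, which cleaves neuropeptide precursors, was at 76.2, 35.2, 60.9 and 74.8 CPM, a ratio of -1.11 (-1.20 to -1.03). Arc, which drives AMPA receptor endocytosis, was at 28.6, 15.5, 22.5 and 33.9 CPM, a ratio of -0.88 (-1.02 to -0.75). For Dusp1, Pcsk1 and Arc the aKO library was the lowest of the 4. Homer1, a postsynaptic scaffold with an activity-induced short form, was at 551 CPM in WT, 353 in aKO, 393 in tKO and 541 in nKO, so that aKO and tKO were both below the other libraries. Bdnf, the neurotrophin, was at 60.7, 53.2, 55.3 and 71.6 CPM, a ratio of -0.19 that did not pass the line.

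These genes differed in level between kinds of excitatory nucleus, and the comparison was repeated within gates on region markers. A gate for CA1 pyramidal markers (no Prox1 UMI and at least 3 of Fibcd1, Wfs1 and Mpped1 together) held 26.8% of the excitatory pool in WT and 24.5% in aKO. Within it 8 of 14 immediate early genes were lower, against 3.23% of the 11653 genes compared there, with a median of -0.69 and summed levels of 393, 241, 417 and 464 CPM in WT, aKO, tKO and nKO. A gate for the granule cell factor Prox1 (at least 3 UMIs) held 9.22% of the pool in WT and 7.16% in aKO. Few of the genes could be read there: 2 reached the count minimum, at log2 ratios of -0.58 and -0.52, both just inside the 1.5-fold line, beside 3.43% of the 7824 genes compared, and the list summed to 142 CPM in WT, 146 in aKO, 178 in tKO and 180 in nKO. Of the effector genes 5 of 23 were lower in the CA1 gate (median -0.24), and in the Prox1 gate 2 of 12 were higher, against 2.04% of all genes there, and 1 lower (median 0.11), with sums of 839 CPM in WT and 1000 in aKO. The Prox1 gate also differed in markers of other cells: CA1 markers summed to 53.5 CPM in WT and 117 in aKO, subicular or cortical markers to 391 and 603, and oligodendrocyte markers to 785 and 502. In the CA1 gate subicular or cortical markers summed to 1397 CPM in WT and 1276 in aKO. Of 10 compared there 3 were lower, against 3.23% of all genes in the gate, with a median of -0.51. The part of such other cells in the values of either gate was not tested. Fos had 3 UMIs in WT and 5 in aKO in the Prox1 gate, and 129 and 22 in the CA1 gate. Whether the gates differ was not tested.

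A list of 22 genes of cholesterol synthesis and uptake was read in both pools. It was added after their values had been seen, and the other lists were chosen with earlier results of these data known. The counts of all the lists therefore describe and do not support. In excitatory nuclei 8 of 22 were lower, against 4.89% of all genes, none higher and all 22 below 0, with a median log2 ratio of -0.51 and summed levels of 486 CPM in WT, 335 in aKO, 457 in tKO and 473 in nKO. In inhibitory nuclei 9 of 19 were lower, against 3.59% of all genes, and 18 below 0, with a median of -0.50 and summed levels of 479, 326, 436 and 455 CPM. The aKO library was the lowest of the 4 for 21 of 22 genes (95.5%) in excitatory and 18 of 19 (94.7%) in inhibitory nuclei, beside 32.2% and 26.9% of all genes.

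Hmgcs1, an early enzyme of the pathway (chr13:119690379-119708260, plus strand), was at 32.8 CPM in WT, 17.9 in aKO, 32.4 in tKO and 32.4 in nKO in excitatory nuclei. Its log2 ratio was -0.88 (-1 to -0.76), and the other 3 libraries lay close together above aKO. Fdft1, squalene synthase, was at 34.7, 19.7, 33.9 and 32.0 CPM, a ratio of -0.82 (-0.94 to -0.70). The sterol carrier Stard4 was the lowest by ratio, at 3.96, 1.60, 4.00 and 3.77 CPM, -1.30 (-1.72 to -0.91). Later enzymes of the pathway, Cyp51 (38.2 CPM in WT and 23.9 in aKO) and Msmo1 (40.3 and 26.4), had ratios of -0.67 and -0.61. Srebf2, the factor that switches on these genes when sterols are low, had a ratio of -0.48, and Dhcr7, which carries out a final reduction, was near 0 at -0.08.

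In inhibitory nuclei Fdft1 was at 27.7 CPM in WT, 15.2 in aKO, 29.6 in tKO and 27.2 in nKO, a log2 ratio of -0.86. Hmgcs1 was at 38.5, 23.3, 37.3 and 42.6 CPM, a ratio of -0.72. In both genes aKO was below the other 3 libraries. Within the CA1 gate 10 of 19 sterol genes were lower, against 3.23% of all genes compared there, with a median of -0.60. Within the Prox1 gate 1 of 6 was lower, against 3.43% of all genes there, with a median of -0.24. In inhibitory nuclei gated for Adarb2, a marker of interneurons from the caudal ganglionic eminence (at least 4 UMIs, no Lhx6 UMI), 6 of 11 were lower, against 4.54% of the 7959 genes compared there, with a median of -0.63. By sex the excitatory medians were -0.55 in female and -0.46 in male nuclei.

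**Figure D3:**
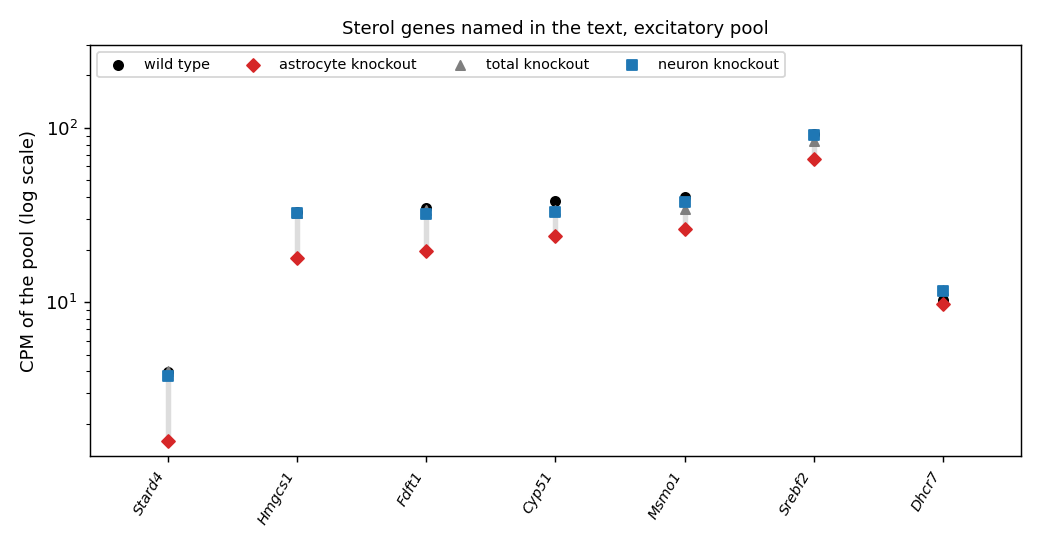
Level in CPM (log axis) of the 7 sterol genes named in the text in excitatory nuclei, with 1 mark for each of the 4 libraries. The aKO mark is the lowest for all 7, with Hmgcs1 at 17.9 CPM against 32.4 to 32.8 in the other libraries.

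The genes that make, break down and sense 2-AG and related lipids (endocannabinoids) were read in both pools. The synthesis list covered the routes to 2-AG and to N-acylethanolamines and G proteins of the Gq family. Of 10 genes of synthesis compared in each pool, 1 was lower and none higher in excitatory nuclei (median -0.05) and none was past the line in inhibitory nuclei (median 0.07), beside 4.89% lower and 1.22% higher of all excitatory genes and 3.59% and 1.62% of inhibitory ones. Dagla, the diacylglycerol lipase that makes 2-AG at synapses, was at 81.2 CPM in WT, 100 in aKO, 84.6 in tKO and 97.6 in nKO in excitatory nuclei, a log2 ratio of 0.30 (0.24 to 0.36). Plcb4, a phospholipase C that supplies its substrate, was the gene past the line, at 41.3, 23.7, 40.3 and 41.4 CPM, -0.80 (-0.91 to -0.69), with aKO alone below the other libraries. Among the other hydrolases, Abhd6 (0.04) and Abhd12 (-0.05) were near 0 in excitatory nuclei, and Faah, the anandamide hydrolase, was at 104, 119, 109 and 120 CPM, a ratio of 0.20. Naaa, an acid amidase for the related N-acylethanolamines, was higher, at 3.31 CPM in WT against 4.99, 5.11 and 4.93 in aKO, tKO and nKO, 0.59 (0.30 to 0.89), so that WT stood apart and the knockouts were alike in level. Cnr1, which encodes CB1, was at 57.8, 70.3, 66.8 and 59.3 CPM in excitatory nuclei, a ratio of 0.28 (0.21 to 0.36), and at 365, 318, 315 and 383 CPM in inhibitory nuclei, -0.20 (-0.27 to -0.13). Its level was highest in WT and nKO in the inhibitory pool and in aKO and tKO in the excitatory pool, and none of these differences passed 1.5-fold.

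Of 14 genes of arachidonate and prostaglandin metabolism compared in excitatory nuclei, 4 were lower, against 4.89% of all genes, and none higher (median -0.27). Pla2g4e, an acyltransferase that makes precursors of N-acylethanolamines, was at 25.3, 13.2, 28.6 and 23.3 CPM in WT, aKO, tKO and nKO, a log2 ratio of -0.94 (-1.08 to -0.80). Ptger3, a prostaglandin E2 receptor, was at 9.16, 5.01, 11.7 and 8.27 CPM, a ratio of -0.87. For both, aKO was the lowest library. Ptgds, prostaglandin D synthase, was at 16.7, 4.81, 19.2 and 2.64 CPM, -1.79. Markers of other cell types were read in the same pools. Oligodendrocyte markers summed to 238 CPM in excitatory nuclei of WT, 163 in aKO, 308 in tKO and 161 in nKO, with 6 of 8 lower in aKO, against 4.89% of all genes, and the choroid plexus marker Ttr was at 45.5, 6.06, 26.3 and 0.323 CPM. Choroid plexus markers summed to 15.6 CPM in WT and 15.9 in aKO in female excitatory nuclei, and to 83.2 and 15.0 CPM in male ones. In inhibitory nuclei the oligodendrocyte markers summed to 141, 36.3, 316 and 48.6 CPM. Vascular or meningeal markers summed to 65, 60.1, 69.3 and 68.7 CPM in the excitatory pools, with none of 3 past the line. Astrocyte markers summed to 667, 637, 647 and 650 CPM there, with none of 6 past the line, 5 of 6 below 0 and a median of -0.33, and aKO was the lowest library for 5 of 6 (83.3%). The part of RNA from such cells in the results was not tested.

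The median log2 ratio of the AMPA, NMDA and GABA receptor, kainate receptor and vesicle release lists lay between 0.00 and 0.09 in excitatory nuclei, and that of the 7 metabotropic glutamate receptor genes at -0.34, with 1 of 7 lower, against 4.89% of all genes, 5 below 0 and aKO the lowest library for 5 (71.4%), against 32.2% of all genes. Of 16 AMPA receptor genes 1 was higher, against 1.22% of all genes, and none lower (median 0.04): Shisa6, an auxiliary subunit that keeps AMPA receptors at the synapse, at 546 CPM in WT, 896 in aKO, 537 in tKO and 607 in nKO, a log2 ratio of 0.71 (0.69 to 0.74). The pore subunit Gria1 was at 1935, 2673, 2070 and 2240 CPM, a ratio of 0.47, and the NMDA subunit Grin2a at 2071, 2673, 2004 and 2192 CPM, 0.37. For Shisa6, Gria1 and Grin2a the aKO library was the highest of the 4. None of 5 NMDA and none of 17 GABA receptor genes was past the line, beside 1.22% higher and 4.89% lower of all genes. Grik4, a kainate receptor subunit of CA3 neurons, was higher at 291, 450, 321 and 346 CPM, a ratio of 0.63. Grm3, a metabotropic glutamate receptor coupled to Gi, was lower, at 237 CPM in WT, 93.6 in aKO, 239 in tKO and 195 in nKO, -1.34 (-1.39 to -1.29), and in inhibitory nuclei at 56.4, 36.9, 133 and 37.3 CPM, -0.61. In the excitatory pool aKO was the single low library for Grm3, and in the inhibitory pool aKO and nKO were level.

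Homer3, a scaffold of metabotropic receptors, was higher in excitatory nuclei, at 13.9, 26.2, 14.0 and 18.3 CPM, 0.92 (0.78 to 1.06). Of 35 genes of vesicle release 3 were lower, against 4.89% of all genes, and none higher (median 0.00), led by the active zone gene Rims3 at 15.4, 7.74, 10.6 and 12.8 CPM, -0.99, and Unc13c at 51.2, 28.4, 58.6 and 44.1 CPM, -0.85. Among 66 potassium channel genes 3 were higher, against 1.22%, and 1 lower (median -0.07). Kcnc2, a fast delayed rectifier, was at 312 CPM in WT, 479 in aKO, 332 in tKO and 351 in nKO, 0.62, and Kcnh5 at 80.7, 46.8, 65.9 and 68.4 CPM, -0.79. In each of these genes aKO lay outside the range of the other 3 libraries.

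Some of these genes mark regions of the hippocampus and its surroundings, so the marker lists were read alongside. CA2 and CA3 pyramidal markers were higher for 2 of 9 genes, against 1.22% of all genes (Grik4 and Bok, median 0.29), CA1 markers for none of 7 (median 0.07), and granule cell markers were lower for 1 of 9, against 4.89%, with all 9 below 0 (median -0.31). Markers of subicular or cortical neurons were lower for 4 of 11, against 4.89% of all genes, and 2 of 11 were above 0 (median -0.51), with sums of 1774, 1758, 1809 and 1815 CPM, and the lower ones were led by Foxp2 at 50.9, 23.5, 61.0 and 38.0 CPM, -1.12, and Rorb at 50.8, 24.8, 40.0 and 43.6 CPM, -1.03. Cdh18, a cadherin, was at 417, 223, 497 and 363 CPM, a ratio of -0.90, with 418 and 138 CPM in female but 406 and 332 in male nuclei of WT and aKO. The aKO library was the highest of the 4 for 7 of 9 CA2 and CA3 markers (77.8%), beside 21.6% of all genes, and the lowest for none. For subicular or cortical markers it was the lowest for 8 of 11 (72.7%), beside 32.2% of all genes, and the highest for 2. In a summed pool a smaller number of nuclei of 1 region and less RNA of the gene per nucleus cannot be told apart.

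The single genes farthest from WT in excitatory nuclei, apart from those above, were mostly of low level. Ccn1, a secreted matricellular protein, was at 2.98 CPM in WT, 0.175 in aKO, 3.92 in tKO and 7.03 in nKO, a log2 ratio of -3.93 (-5.33 to -3.07) from 146 and 8 UMIs, and it was lower in female (2.21 and 0.0525 CPM) and in male nuclei (3.81 and 0.0539 CPM). The Wnt agonist Rspo1 (-1.31), the protease inhibitor Cst6 (-1.28), the actin-binding Xirp2 (-1.28), Shoc1 (-1.12), Tmem232 (-1.11) and Igfn1 (-1.11) followed. On the other side C1qtnf7, a secreted protein of the C1q and TNF family, was at 1.02 CPM in WT, 5.66 in aKO, 4.18 in tKO and 1.37 in nKO, 2.45 (2.03 to 2.94). It was high in aKO and tKO and low in WT and nKO. Dcn, the proteoglycan decorin, was at 17.6, 39.5, 28.9 and 18.5 CPM, 1.17 (1.05 to 1.29), with the same order of libraries, and was higher in female (20.3 and 48.3 CPM) and male nuclei (15.5 and 30.2 CPM). The metalloproteases Tll2 (1.58) and Adamts14 (1.44), the urea transporter gene Slc14a2 (1.33), Olfr557 (1.17), the fatty acid receptor Cd36 (1.16), Csf2rb2 (1.05), Atoh8 (1.04), Eya2 (1.03), Atp2c2 (0.99) and the actin-severing Scin (0.98) completed the highest. Scin was at -0.069 once barcodes with at least 5 glial or vascular marker UMIs were left out. The gene models farthest from WT were G530011O06Rik (-2.72), 4930469K13Rik (-2.41) and Gm15726 (-1.98) below, and 4732496C06Rik (1.5), Gm34045 (1.39) and Gm29771 (1.21) above.

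**Figure D4:**
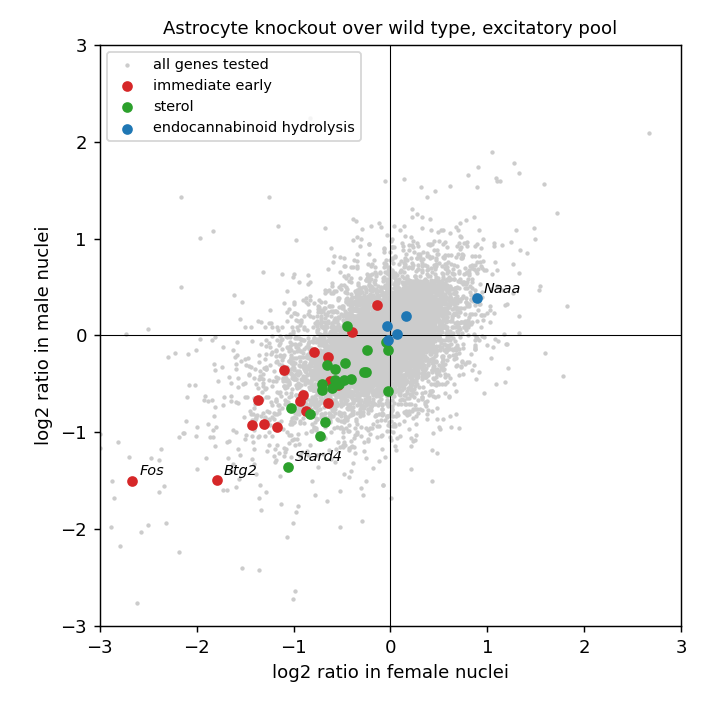
Log2 ratio of aKO over WT in female (x axis) and male (y axis) excitatory nuclei, with 1 dot for each gene compared; red, green and blue dots are immediate early, sterol and endocannabinoid hydrolysis genes, 4 genes are labelled, and 10 genes lie outside the plotted range of 3 in either direction. Fos lies at -2.66 and -1.5, and the red dots have medians of -0.90 in female and -0.66 in male nuclei.

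Inhibitory nuclei of aKO had lower neuropeptide RNA. Of 15 neuropeptide genes compared, of 21 listed, 8 were lower against 3.59% of all genes, none was higher and all 15 were below 0, with a median log2 ratio of -0.59 beside -0.05 for all genes. Their summed level was 5210 CPM in WT, 4002 in aKO, 3347 in tKO and 4133 in nKO, so that WT was the highest and tKO the lowest library. By sex the median was -0.78 in female and -0.45 in male nuclei, and 5 of the 15 were past 1.5-fold lower in both, against 1.34% of all genes. The Adarb2 gate had 5 of 9 lower, against 4.54% of all genes there, and none higher (median -1.50). In a gate for Lhx6, described further on, 1 of 6 was lower and 1 higher (median -0.13). Of the 2571 genes compared there, 8.40% were past the line in either direction. In the excitatory pool 4 of 12 were lower and 1 higher, against 4.89% and 1.22% of all genes (median -0.41).

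Vip, vasoactive intestinal peptide, which marks interneurons that inhibit other interneurons (chr10:5639218-5647617, plus strand), stood at 218 CPM in WT, 48.2 in aKO, 92.7 in tKO and 98.8 in nKO. The log2 ratio of aKO over WT was -2.17 (-2.32 to -2.03), from 2273 and 496 UMIs, so that WT was 4.51-fold above aKO. It was 198 and 46.1 CPM in female and 247 and 45.3 CPM in male nuclei of WT and aKO. All 3 knockout libraries were below WT, with aKO the lowest. Tac2, which encodes neurokinin B, was at 79.8, 14.5, 26.6 and 37.7 CPM, -2.46 (-2.72 to -2.21), and Calb2, calretinin, at 11.3, 2.53, 6.07 and 2.92 CPM, -2.12. Crh, the corticotropin-releasing hormone, was at 21.1, 7, 8.68 and 10.6 CPM, -1.58. These genes had their highest level in WT. Penk, the enkephalin precursor, was at 44.1, 10.9, 67.4 and 18.0 CPM, -2.01, with tKO above WT.

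Of the 4 Vip interneuron markers compared, Vip, Calb2, Penk and Cxcl14, all were lower, against 3.59% of all genes, with a median of -2.06 and summed levels of 350, 108, 208 and 190 CPM. The number of Vip nuclei was lower too. Nuclei with at least 3 Vip UMIs were 100 of 984 inhibitory nuclei in WT, 10.2% (8.35 to 12.2), and 34 of 1213 in aKO, 2.80% (1.95 to 3.89), beside 6% in tKO and 5.76% in nKO. With each nucleus thinned to 4000 UMIs, which left out 32 nuclei in WT and 63 in aKO, the shares were 9.24% and 2.35%, and 4.34% and 4.44% in tKO and nKO. In the excitatory pools 0 of 4077 nuclei of WT and 0 of 4581 of aKO reached 3 Vip UMIs, with exact upper limits of 0.0904% and 0.0805%. Within the Vip nuclei the level was 2710 CPM in WT, 2020 in aKO, 1664 in tKO and 2072 in nKO, but Vip itself picks these nuclei, so the share and the level within them are not independent. By sex the shares were 10.1% of female and 9.90% of male nuclei in WT, and 2.72% and 2.46% in aKO. Markers of Lamp5 and CCK interneurons had medians nearer to WT, at 0.01 over 6 Lamp5 and -0.21 over 4 CCK genes. None of either list was past the line, beside 3.59% lower and 1.62% higher of all genes. At those shares, lists this short would be expected to have few or none past it. The Adarb2 gate held 38.9% of inhibitory nuclei in WT, 31.6% in aKO, 38.5% in tKO and 32.8% in nKO, without thinning.

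**Figure D5:**
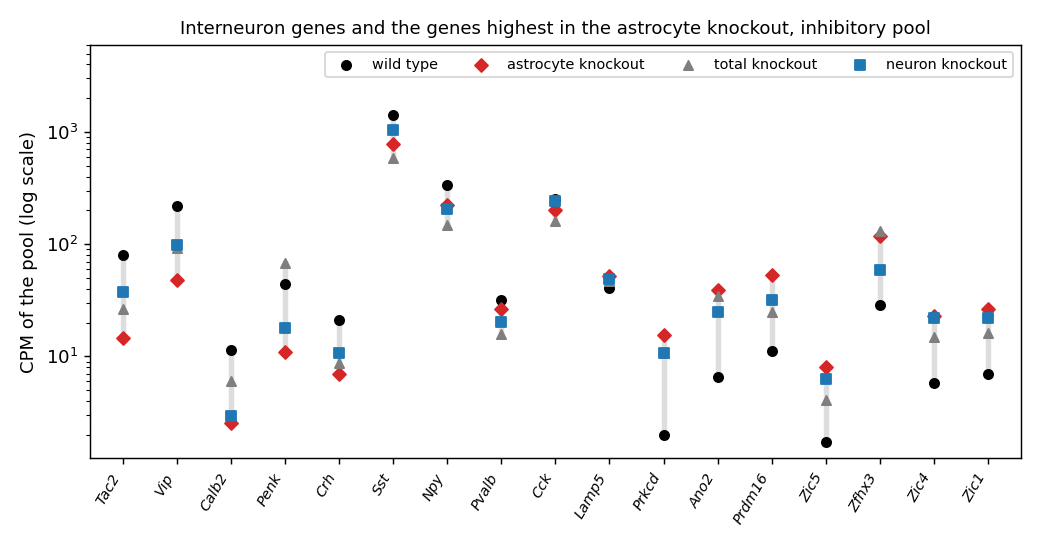
Level in CPM (log axis) of 17 genes in inhibitory nuclei, with 1 mark for each of the 4 libraries. Interneuron markers and neuropeptides are followed by genes among those with the highest ratios of aKO over WT. Vip is at 218 CPM in WT and 48.2 to 98.8 in the knockout libraries, and Tac2 at 79.8 and 14.5 to 37.7.

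Sst, somatostatin, made by interneurons that target distal dendrites, was at 1403 CPM in WT, 789 in aKO, 589 in tKO and 1043 in nKO, a log2 ratio of -0.83 (-0.87 to -0.79). Nuclei with at least 3 Sst UMIs were 30.2% of inhibitory nuclei in WT and 26% in aKO, or 28.2% and 23.7% after thinning, and the level within them was 4351 and 2756 CPM. Sst likewise picks these nuclei itself. Npy, neuropeptide Y, often made by the same cells, was at 336, 223, 149 and 206 CPM, -0.59, and Cort, cortistatin, at 53.6, 37.3, 27.3 and 40.1 CPM, -0.52. WT was the highest library for Sst, Npy and Cort. Cck was at 254, 200, 162 and 244 CPM, -0.34, and Pvalb, parvalbumin, at 31.7, 26.4, 16.0 and 20.1 CPM, -0.26, both inside the line. A gate was set for Lhx6, a factor of interneurons from the medial ganglionic eminence (at least 2 UMIs, at most 1 of Adarb2). It held 7.72% of inhibitory nuclei in WT (76 nuclei), 3.38% in aKO (41 nuclei), 2.79% in tKO and 6.07% in nKO. These shares were not thinned to a common depth.

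Immediate early genes were lower in inhibitory nuclei as well: 5 of 8 compared, against 3.59% of all genes, with a median log2 ratio of -0.79 and summed levels of 140, 94.2, 174 and 162 CPM in WT, aKO, tKO and nKO. Nr4a3 was at 16.7, 6.70, 22.1 and 25.4 CPM, -1.30 (-1.74 to -0.90), Egr1 at 8.71, 4.08, 17.4 and 10.9 CPM, -1.08, and Btg2 at 8.04, 4.08, 9.75 and 8.76 CPM, -0.96. In these 3 genes aKO was the lowest library. Jun was at 10.2, 3.89, 7.89 and 5.69 CPM, -1.38, while Npas4 (0.06) and Nr4a1 (-0.08) were level with WT. Of 17 effector genes 4 were lower, against 3.59%, and none higher (median -0.34), among them the kinase gene Plk2 at 29.3, 15.1, 24.3 and 21.9 CPM, -0.96, Scg2, secretogranin II, at 180, 115, 119 and 122 CPM, -0.65, and Pcsk1 at 39.1, 24.5, 40.2 and 47.9 CPM, -0.67.

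The named gene highest above WT in inhibitory nuclei of aKO was Prkcd, a protein kinase C, at 2.01 CPM in WT, 15.4 in aKO, 10.8 in tKO and 10.6 in nKO, 2.87 (2.27 to 3.66). The chloride channel gene Ano2 was at 6.61, 39.3, 34.3 and 25.0 CPM, 2.56, and the zinc-finger factors Prdm16 at 11.2, 52.9, 24.9 and 31.6 CPM, 2.23, and Zfhx3 at 28.4, 119, 132 and 59.1 CPM, 2.07. For all 4 genes WT was the lowest library. The neighbouring developmental factors Zic1 (chr9:91358058-91365810, minus strand) and Zic4 (chr9:91362413-91389348, plus strand), which overlap on opposite strands and could share reads, were at 6.89, 26.4, 16.0 and 21.9 CPM, 1.92, and at 5.74, 22.7, 14.8 and 21.8 CPM, 1.97. Nuclei with at least 2 UMIs of Zic1 plus Zic4 were 21 of WT (2.13% of inhibitory nuclei), 107 of aKO (8.82%), 5.41% in tKO and 7.69% in nKO, and 1.37%, 4.43%, 3.15% and 4.68% after thinning. In female nuclei the share was 0.762% in WT and 10.9% in aKO, and in male nuclei 3.91% and 4.52%. Zic1 itself was at 2.17 and 31.9 CPM in female and at 11.7 and 13.2 CPM in male nuclei, so that its difference lay in the female nuclei, and Prkcd had log2 ratios of 5.22 and 1.15 by sex. Without nuclei holding any Zic1 or Zic4 UMI, an exclusion added after these values were seen, 91 genes were higher and 411 lower of 11055 compared in the inhibitory pool, beside 184 and 407 with them. Without them the log2 ratio was smaller for Ano2 (1.52) and Zfhx3 (1.31), and that of Vip was -2. It was larger for Prkcd (4.75), Prdm16 (2.46), Zic5 (3.34) and Cpa6 (3). These ratios and those by sex were held to no count minimum. Zic1 and Zic4, with no UMI left, still had a ratio of 0.17, from the 1 UMI added to each sum. The size of a ratio is thus uncertain where few UMIs remain, as for Prkcd, at 2.01 CPM in the whole WT pool.

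The GABA-A receptor subunits Gabrg1, at 18.1, 49.2, 42.0 and 39.9 CPM (1.44), and Gabra2, at 204, 349, 409 and 310 CPM (0.78), were higher, 2 of 17 GABA receptor genes compared against 1.62% of all genes (median 0.15), with WT the lowest library for both. Without the Zic nuclei Gabra2 was at 0.56, inside the line, and Gabrg1 at 1.14. Zic5 (2.17), Clic6 (1.93), Col9a3 (1.88, and 0.58 without the Zic nuclei), Igfbpl1 (1.87), Cpa6 (1.55) and the globin gene Hbb-bs (1.54) were the other highest genes, and Rgs9 (-1.37), Plpp4 (-1.36), Asic4 (-1.30), Cd59a (-1.29), Cenpa (-1.24), Creb5 (-1.22) and the adrenergic receptor gene Adra1b (-1.19) the other lowest. The ratio of Col9a3 without the Zic nuclei was held to no count minimum, so its size is uncertain. Some of these genes are in the marker lists of other cells. Clic6 was 1 of 2 choroid plexus markers compared in the inhibitory pool, and the other, Ttr, was lower at -1.91. Igfbpl1 was the 1 of 4 immature neuron markers past the line (median 0.02), and Prkcd the 1 thalamic marker compared. The part of such cells in these ratios was not tested. Rgs9, a regulator of G protein signalling typical of striatal neurons, was at 31.1, 11.9, 101 and 18.3 CPM, with tKO far above the rest. Gene models farthest from WT were Gm49980 (-1.89), Gm21887 (-1.53) and Myadml2os (-1.18) below, and Gm29478 (2.30), B020031H02Rik (1.60) and Gm5089 (1.14) above.

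Housekeeping lists had medians below 0 in both pools, and their sums followed another order of libraries. Cytosolic ribosomal protein genes summed to 2426 CPM in WT, 1858 in aKO, 2090 in tKO and 1724 in nKO in excitatory nuclei, with 4 of 80 lower, a share near the 4.89% of all genes, and 78 below 0 (median -0.43), and to 2878, 2111, 2446 and 1971 CPM in inhibitory nuclei, with 12 of 79 lower, against 3.59% of all genes (median -0.45). Nuclear genes of oxidative phosphorylation summed to 2797, 2327, 2362 and 2125 CPM in excitatory nuclei, with 6 of 75 lower, against 4.89% (median -0.33). For these lists nKO and not aKO was the lowest library. The chaperone gene Hspa8 was at 195, 93.3, 115 and 94.0 CPM, -1.07 (-1.12 to -1.01), and Hsp90ab1 at 218, 121, 144 and 110 CPM, -0.84, with WT apart from all 3 knockouts. Transcripts of the mitochondrial genome, which lie outside the nucleus, summed to 353, 225, 335 and 74.7 CPM in excitatory nuclei, with 8 of 11 lower, against 4.89% of all genes (median -0.68), and the median was -1.16 in female and -0.12 in male nuclei. The median UMIs per excitatory nucleus were 11002 in WT, 9031 in aKO, 7659 in tKO and 10055 in nKO, and the part of depth and of RNA quality in these lists was not tested.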

How the data were processed

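Single-nucleus libraries of hippocampus, 1 per genotype, were used as the UMI counts per gene and barcode that the authors deposited as filtered tables; Cell Ranger ARC 2.0.0 and the build mm10 are named per the submitters' processing notes, while the sources used here give no other step. The files list barcodes with 400 to 5998 detected genes. Barcodes with at least 500 detected genes were gated and their counts summed per library and pool. Genes were joined by symbol: 20588 genes listed by both files held at least 99.989% of their UMIs, and 20195 (98.1%) were found in GENCODE M21 (GRCm38), the source of positions. Log2 ratios add 1 UMI to each sum. No test was made, with 1 library a side; Poisson, conditional binomial and Clopper-Pearson intervals are exact at 95%. No doublet caller was run; barcodes with high UMIs or with at least 5 glial or vascular marker UMIs were left out as alternatives. The tKO and nKO libraries share the WT control with aKO and are given side by side.

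The genes named were first the 12 highest and 12 lowest ratios per pool, without gate, sex and mitochondrial genes. These came from genes with a level in the pool at least that outside it. Added to them were the 3 highest and lowest gene models, up to 4 list members past 1.5-fold and genes of the endocannabinoid lists. Others named were chosen after their values were seen. The members and lists were chosen with earlier results of these data known, and the sterol list and the Zic exclusion were added after values were seen. The ratio code was tested on simulated data. Python 3.11.15, numpy 2.4.6, scipy 1.17.1, pandas 2.3.3 and matplotlib 3.10.9 were used. A few members of the lists are counted but not reported by name here.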

Additional observations from a re-analysis of the deposited data

Results flagged for a closer look

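For 5 named genes the log2 ratio of aKO over WT passed 1.5-fold in opposite directions in the 2 pools. Plpp4, a lipid phosphatase, was at 0.63 in excitatory and -1.36 in inhibitory nuclei. Cpa6, a carboxypeptidase, was at -0.60 and 1.55. The globin gene Hbb-bs was at -1.26 and 1.54. Chrm2, a muscarinic acetylcholine receptor, was at -0.61 and 0.62. Sst was at 0.71 and -0.83, with its excitatory level at only 1.82 CPM in WT and 2.97 in aKO and its excitatory ratio at -0.054 in female nuclei. With 1 library a genotype, none of these differences between pools was tested.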

How the results depend on the processing

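No paired analysis was possible because each genotype has 1 library, and for the same reason no replicate could be left out. The count of genes past 1.5-fold moved with the count minimum, the fold and the nuclei used, which also set how many genes were compared. In excitatory nuclei it was 898 of 14689 genes compared (6.11%), and 2112 at a minimum of 20 UMIs, 330 at 500 UMIs, 191 at 2-fold, 483 without barcodes with glial or vascular UMIs, 538 of 12554 in male nuclei (4.29%), 428 of 7824 in the Prox1 gate (5.47%) and 536 of 11653 in the CA1 gate (4.60%). In inhibitory nuclei it was 591 of 11333 (5.21%), and 1735, 170 and 104 under the first 3 of these, 278 of 8553 in male nuclei (3.25%) and 216 of 2571 in the Lhx6 gate (8.40%). In female nuclei the count was larger than in male nuclei, at 1049 of 12873 in the excitatory pool (8.15%) and 715 of 9387 in the inhibitory pool (7.62%). At 2-fold the inhibitory split was 53 higher and 51 lower. The log2 ratio of Mgll was -0.089 in excitatory and 0.52 in inhibitory nuclei without glial or vascular UMIs, 0.13 in excitatory nuclei under the stricter gate, and -1.03 in astrocyte-gated female nuclei, from 52 and 6 UMIs. The glial or vascular setting left out barcodes with at least 5 UMIs of those markers, a count not scaled to depth. Astrocyte markers summed to 667 CPM in WT and 637 in aKO in the excitatory pools, and oligodendrocyte precursor markers to 344 and 413 in the inhibitory pools. It left 10710 excitatory and 7933 inhibitory genes to compare. The part of depth in its values was not tested. The difference in pool share, aKO minus WT, was -0.86 percentage points for excitatory nuclei and -3.29 under the stricter gate, 0.82 in male and -3.56 in female nuclei; for inhibitory nuclei it was 0.80, and -3.65 without glial or vascular UMIs and -0.67 under the stricter gate. Signs turned for Scin (-0.069), Adra1a (-0.037), Nxph3 (0.11) and Cdkn1a (0.093) in excitatory and Ptgds (0.36) in inhibitory nuclei without glial or vascular UMIs; for Pla2g4a (0.086) in male and Sst (-0.054) in female excitatory nuclei; for Kcnn3 (-0.26), Kcnh8 (-0.18), Rorb (0.24), mt-Nd1 (0.014) and Ephb1 (-0.23) in male inhibitory nuclei; and for Ephb1 under the stricter gate (-0.20) and without Zic nuclei (-0.096). The cause of each was not tested. Over the alternatives on the whole pools the immediate early median ranged from -0.66 to -0.90 in excitatory and from -0.74 to -1.37 in inhibitory nuclei, the sterol median from -0.44 to -0.55 and from -0.45 to -0.60, Fos in excitatory nuclei from -1.5 to -2.66 and Vip in inhibitory nuclei from -1.75 to -2.44. Within gates the immediate early median was -0.55 (Prox1) and -0.69 (CA1), and the sterol median -0.24 (Prox1), -0.60 (CA1) and -0.63 (Adarb2). Fos was not compared in the Prox1 gate, with 3 and 5 UMIs.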

Other observations

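Adhesion and guidance genes were read in excitatory nuclei. Of 26 cadherin and protocadherin genes 1 was higher and 4 lower, and 17 were below 0, with a median log2 ratio of -0.15 beside -0.05 for all genes, of which 1.22% were higher and 4.89% lower. Pcdh11x, an X-linked protocadherin, was at 126 CPM in WT, 68.6 in aKO, 122.8 in tKO and 100 in nKO, -0.87 (-0.94 to -0.81). Cdh20 was at 115, 70.8, 122.6 and 118 CPM, -0.71 (-0.77 to -0.64). For both, aKO was the lowest of the 4 libraries, in female nuclei (-1.16 and -0.80) and male nuclei (-0.72 and -0.66) alike below WT. Of 63 axon guidance genes 2 were higher and 3 lower (median 0.06), the lowest being Ntn4, a netrin, at 4.35, 2.17, 4.72 and 5.28 CPM, -1 (-1.36 to -0.65). Sema3a, a repellent semaphorin, was at 22.1, 11.9, 25.5 and 16.1 CPM, -0.89.

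Of the receptor genes for monoamines and acetylcholine, 1 was higher and 2 were lower in each pool, of 25 compared in excitatory nuclei (median 0.04) and of 16 in inhibitory nuclei (median 0.05), beside 1.22% higher and 4.89% lower and 1.62% higher and 3.59% lower of all genes. Htr3a, the ionotropic serotonin receptor of interneurons from the caudal ganglionic eminence, was at 20.6, 10.4, 13.4 and 24.9 CPM in inhibitory nuclei of WT, aKO, tKO and nKO, -0.98 (-1.33 to -0.64). Adra1b was at 36.8, 16, 20.2 and 22.8 CPM, -1.19. For both aKO was the lowest library. Chrna4, a nicotinic receptor subunit, was at 5.86, 3.28, 5.95 and 6.30 CPM in excitatory nuclei, -0.83, with aKO alone below the other libraries. Of the clock genes compared in excitatory nuclei, Rorb and Cry1 were lower (2 of 18, against 4.89% of all genes, median -0.21); Cry1, a repressor of the clock, was at 12.2, 7.61, 10.5 and 9.40 CPM, -0.68 (-0.87 to -0.49).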
